A study of Rattus norvegicus with 3 samples.

Results

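The array labelled 1.0 h of a rat time course was compared with the array labelled 0.0 h, gene by gene and across 72 gene families. All samples of the series carry pineal gland and adrenal medulla as one joint source, total RNA as the molecule, and a time label of 0.0 h, 0.1 h or 1.0 h. The comparison used 2 of its 3 arrays, chosen by their time labels, and the 0.1 h array is given only as a further value beside them. The sources used here do not give strain, age, the number of animals, any pooling of glands or the treatment that was timed, so the shared background of both samples cannot be described further. There was 1 array for each label. Every difference below is therefore without replicates and without a test, and describes these arrays alone.

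The pineal gland is a neuroendocrine organ that turns serotonin into melatonin under the control of noradrenaline, which reaches its cells at night from sympathetic nerves and acts through adrenergic receptors and cyclic AMP. The adrenal medulla makes and stores catecholamines in chromaffin cells. In many tissues a stimulus is followed first by immediate early genes, which encode transcription factors and are switched on without new protein synthesis, and interferon-induced genes include the machinery that cuts proteins into peptides and loads them on MHC class I molecules.

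A gene was read from its brightest probe set and was called measured when it lay above an intensity of 262.3 on both arrays, the 40th percentile of the pooled values of the 3 arrays after a common shift. Of 4736 named genes, 3030 were measured. Their log2 differences between 1.0 h and 0.0 h had a median of 0.01 and an SD, taken from the median absolute deviation across genes, of 0.43. A 2-fold difference was used as the mark of a gene that stood apart: 70 genes (2.31%) were higher by 2-fold or more at 1.0 h and 80 (2.64%) lower by as much, 150 in all (4.95%). Counted by probe set these were 137 (2.87%) and 123 (2.58%) of 4776. Beta-actin control probe sets had a ratio of 3' to 5' signal of 10.4 on the 0.0 h array and 44.4 on the 1.0 h array. The second ratio rests on a 5' value below the floor, at 173.1 against 572.0 at 0.0 h. The 3' values were 5948.4 at 0.0 h and 7687.6 at 1.0 h. From the 3' end to the middle of the transcript the beta-actin ratios were 5.7 and 4.8, and GAPDH controls gave 15.3 and 14.1 from end to end; the part of RNA quality in any result was not tested. The 9 spike-in probe sets, which are added in fixed amounts, had a median log2 difference of -0.19. Scaling to them raises every gene alike, moves the median of all genes to 0.21, and turns the split of 137 higher and 123 lower probe sets, 52.7% of them higher, into 262 and 63, 80.6% higher. Families are therefore described by their median minus that of all measured genes, which such a shift does not move, and a family of 5 or more measured genes was spoken of as shifted when this value was at least 0.25 from 0.

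**Figure D1:**
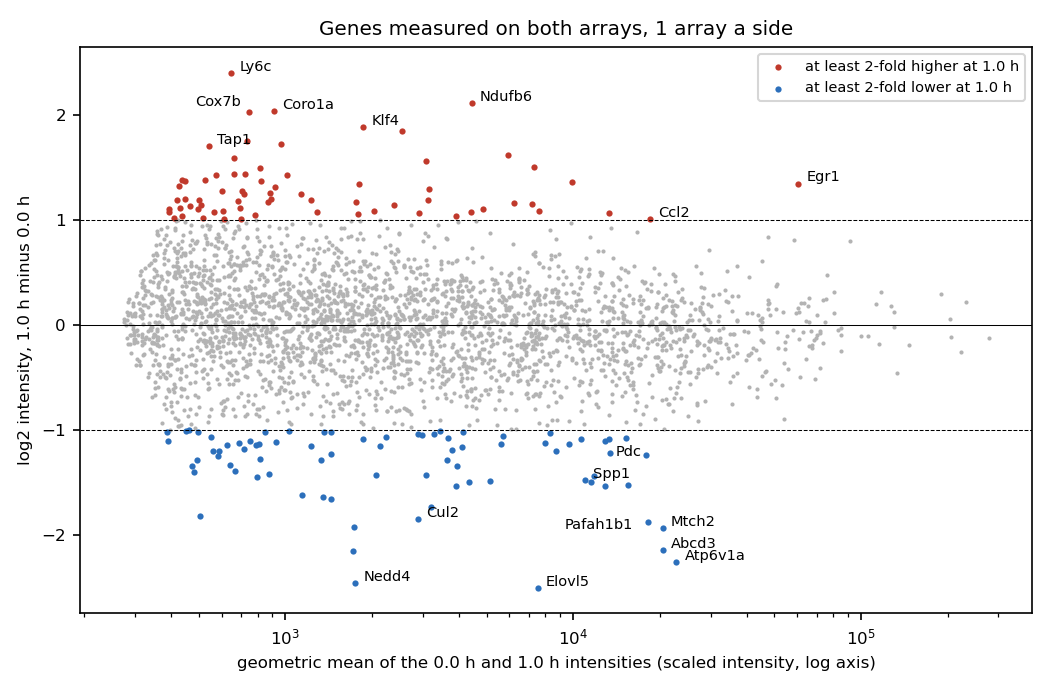
Each point is 1 of 3030 measured genes, with the geometric mean of its intensities on the 0.0 h and 1.0 h arrays on a log axis and its log2 difference on the other axis. Dashed lines mark 2-fold; 70 genes lie at or above the upper line and 80 at or below the lower one, and the labelled higher genes Ly6c, Coro1a, Cox7b and Tap1 are dim while the labelled lower genes Abcd3, Mtch2 and Atp6v1a are bright.

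Genes of antigen presentation and of the interferon response lay above the mark for a shift on the 1.0 h array, although some other settings brought each family under it. The MHC and antigen processing family, with 24 of 27 genes measured, had a relative median of 0.32, and 18 of the 24 lay above the median of all genes; with all probe sets of a gene averaged it was 0.12. The interferon-induced family, with 11 of 16 measured, had 0.28, with 10 of 11 above that median, and 0.21 with quantile or cyclic loess normalisation and 0.20 with probe sets averaged. Few single members reached 2-fold: 1 of 24 and 3 of 11, against 2.31% of all genes, and none was 2-fold lower, against 2.64%. These shares are the background against which the count of every family below is read. In RNA of a tissue, a different number of cells of a type and a different amount of RNA per cell cannot be told apart.

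Tap1 carries peptides into the endoplasmic reticulum as part of the TAP transporter, and its intensities on the 0.0 h, 0.1 h and 1.0 h arrays were 299.9, 781.5 and 977, putting the 1.0 h array 3.26-fold above 0.0 h. It was dim at 0.0 h, and its 2 probe sets had log2 differences of 1.70 and 1.30. Tap2, its partner, was nearer to level at 889.7, 1002 and 1181. The immunoproteasome subunit gene Psmb8 had 1902, 3152 and 3036, 1.60-fold higher, and Psmb9, its neighbour in the MHC region, 1156, 1946.5 and 1404. Ctss, the cathepsin that trims the class II invariant chain, had 9561, 9905 and 15536, with the 0.0 h and 0.1 h arrays close together and the 1.0 h array above both. The class I heavy chain genes RT1-S3 and RT1-CE12 were at 1294, 2205 and 2564 and at 12325, 15789 and 22674.5, or 1.98-fold and 1.84-fold higher. These class I genes are near-identical copies of one another, so which copy a probe set reads is uncertain. B2m, the class I light chain, did not follow them, with 36494, 20820.0 and 37337. The class II genes Cd74 and RT1-Da were 1.49-fold and 1.31-fold higher, while the lipid-presenting Cd1d1 was 1.65-fold lower at 13801, 8057 and 8373.

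Among interferon-induced genes Ly6c, a small surface antigen of endothelium and leukocytes, was the highest gene of the whole comparison, with 282, 786 and 1487.5, 5.27-fold. Oas1a, which senses double-stranded RNA, had 1130.3, 2444 and 2866 and was 2.54-fold higher. Irf7, a transcription factor that drives interferon genes, had 3037, 5357 and 6405, 2.11-fold on its brightest probe set and a log2 difference of 1.61 on its other one. Both Irf7 probe sets carry the same EST name and so share sequence. Irf1 and Irf3, of the same factor family, were 1.78-fold and 1.42-fold higher. The exception was Eif2ak2, the kinase PKR, which was 1.51-fold lower at 3952, 2723 and 2624. Rsad2, the antiviral enzyme viperin, was not on either list and was chosen after its values were seen. Its brightest probe set had 2019, 5140.4 and 4938, 2.45-fold higher, and its other probe set a log2 difference of 0.26. Mx2 and Gbp2 lay above the floor only at 1.0 h, with 111, 116 and 404 and 91.9, 109 and 286.

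**Figure D2:**
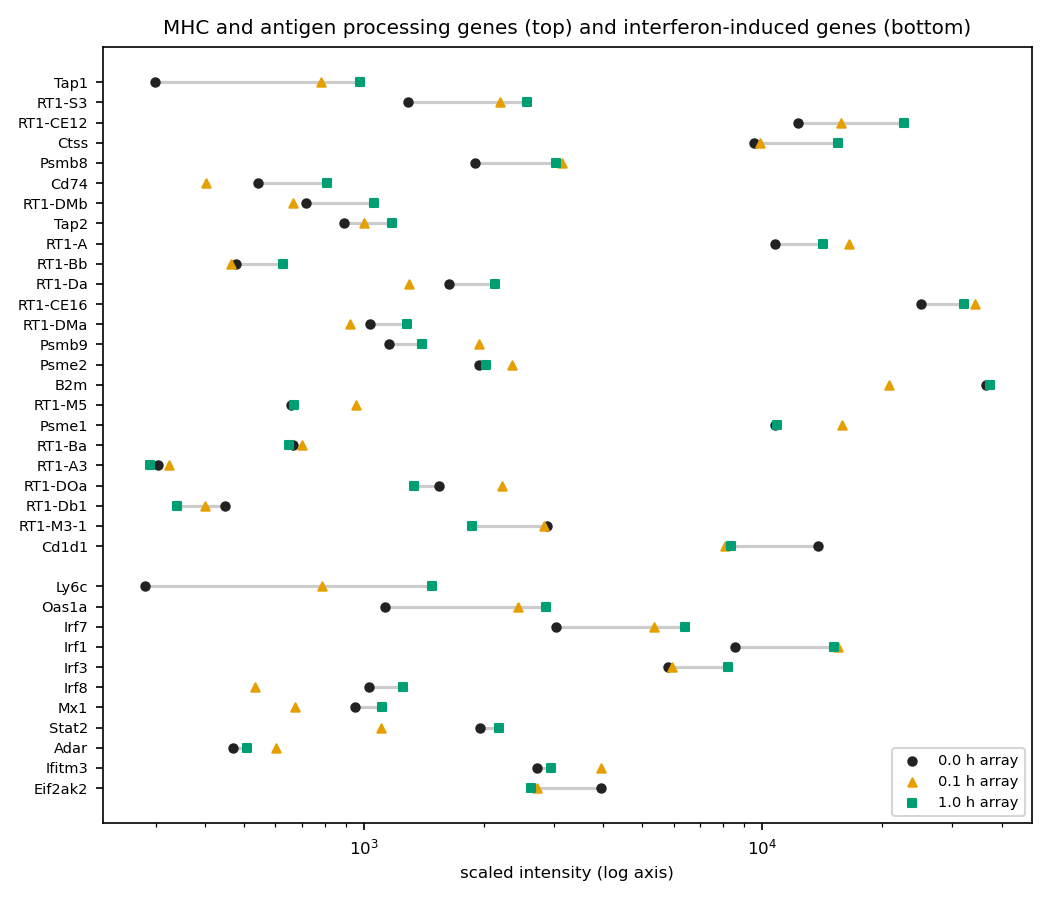
Scaled intensity on a log axis for the 24 measured MHC and antigen processing genes and the 11 measured interferon-induced genes, with a circle for the 0.0 h array, a triangle for 0.1 h and a square for 1.0 h, 1 array each. The square lies right of the circle for most genes, farthest for Tap1 and Ly6c, and left of it for Cd1d1, RT1-M3-1 and Eif2ak2.

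Many interferon-induced genes carry an interferon-stimulated response element near their start. Its core, GAAANNGAAA on either strand, was looked for in the 250 bases before the start site in RefSeq's promoter table for the rat assembly GRCr8, in which 31 of the 35 genes of both families had an entry. A match was found in 10 of the 31 (32.3%), in 78 of 2725 promoters of measured genes (2.86%) and in 1140 of all 33469 promoters (3.41%). All 3 members at least 2-fold higher that had an entry, Tap1, Irf7 and Oas1a, held a match, as did Rsad2. Ly6c, the member farthest apart, had no entry. These 4 windows are shown because each holds a match and its gene was at least 2-fold higher; each is written 5′ to 3′ toward the gene, with matches in capitals.
Tap1 (GRCr8, chr20:4668544-4668793, minus strand): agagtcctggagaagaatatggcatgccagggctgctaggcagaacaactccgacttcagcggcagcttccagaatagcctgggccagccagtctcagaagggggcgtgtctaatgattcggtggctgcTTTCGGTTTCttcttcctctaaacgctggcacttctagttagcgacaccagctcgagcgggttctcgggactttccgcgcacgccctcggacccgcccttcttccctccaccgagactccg
Irf7 (GRCr8, chr1:205800024-205800273, minus strand): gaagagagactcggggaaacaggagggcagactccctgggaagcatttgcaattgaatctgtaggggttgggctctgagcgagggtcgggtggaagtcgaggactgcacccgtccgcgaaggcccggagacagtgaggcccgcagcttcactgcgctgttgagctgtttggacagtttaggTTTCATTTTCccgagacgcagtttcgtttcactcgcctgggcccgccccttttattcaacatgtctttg
Oas1a (GRCr8, chr12:41330216-41330465, plus strand): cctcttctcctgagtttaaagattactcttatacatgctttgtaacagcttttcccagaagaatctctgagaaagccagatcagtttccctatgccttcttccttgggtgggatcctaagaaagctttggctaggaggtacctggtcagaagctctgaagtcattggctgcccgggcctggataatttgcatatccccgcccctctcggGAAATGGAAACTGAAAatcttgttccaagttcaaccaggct
Rsad2 (GRCr8, chr6:48788121-48788370, minus strand): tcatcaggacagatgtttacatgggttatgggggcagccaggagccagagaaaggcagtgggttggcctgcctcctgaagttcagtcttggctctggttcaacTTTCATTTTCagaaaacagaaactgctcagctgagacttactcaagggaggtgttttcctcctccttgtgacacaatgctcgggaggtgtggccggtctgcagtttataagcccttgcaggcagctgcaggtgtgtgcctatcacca
The match in Tap1 spanned positions -121 to -112 from the start site, that in Irf7 -69 to -60 and that in Rsad2 -147 to -138, all 3 on the strand opposite to the gene. Oas1a held 2 overlapping matches on its own strand, from -41 to -32 and from -35 to -26. Of 76 measured genes with a match, 4 (5.26%) were 2-fold or more higher and 4 (5.26%) lower by as much, with a median log2 difference of 0.03. Of 2433 without one, 54 (2.22%) were higher and 65 (2.67%) lower, with a median of 0.01, so genes with the core were counted in larger shares in both directions. The higher ones were Tap1, Irf7, Oas1a and Rsad2, the same genes shown above, so their share is no separate result. The lower ones were Atp6v1a, Fgf1, Serpinb9 and Suclg1. Members of both families with a match that stayed under 2-fold were RT1-S3, Ctss, Tap2, Ifitm3, Psme2, B2m and Eif2ak2. Their log2 differences were 0.99, 0.70, 0.41, 0.12, 0.06, 0.03 and -0.59. A match is a run of letters and not a shown binding site.

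Immediate early transcription factors had the highest relative median of the 72 families, 0.49, with 19 of 25 genes measured, 16 of them above the median of all genes, 4 of them 2-fold or more higher, with none as far below. Klf4 had 973, 1932 and 3576 on its brightest probe set and log2 differences of 1.88 and 1.35 on its 2 probe sets, which share a name. Of the next members, Klf6 lay just under the mark with 1503, 2032 and 3006, Myc had 384, 599.9 and 739.8 and Egr2 3805.5, 7149 and 6949.9, or 2.00-fold, 1.93-fold and 1.83-fold higher. Zfp36, which destabilises cytokine messages, had 1633, 1715 and 2597. Other members were near level: Nr4a2 at 1209.8, 1118 and 1168.5, Atf3 at 2457, 3881 and 2626 and Klf10 at 18371, 11171 and 18737. Nr4a3 was above the floor at 0.1 h and 1.0 h only, with 157.5, 681 and 649, and Egr3 and Ier5 at 0.0 h but not at 1.0 h, with 384, 111 and 212 and 305, 860.3 and 206. The family therefore split between members that were higher, led by Klf4, Nr4a1, Egr1 and Fos, and members that were level. Read from second-brightest probe sets, which 5 of its genes had, its relative median was 0.02. Of 12 members with a promoter entry, 0 held the full cyclic AMP response element TGACGTCA, against 2.53% of promoters of measured genes. Its half-site TGACG was held on either strand by 8 (66.7%), against 28.5%. Over all measured genes, 15 of 736 with the half-site (2.04%) were 2-fold or more higher and 14 (1.9%) lower. Of 1773 without it, 43 (2.43%) were higher and 55 (3.1%) lower, so genes with the half-site were not counted in larger shares. Nr4a1, an orphan nuclear receptor that was 3.30-fold higher at 529.8, 2268 and 1749, is shown because its window held 4 matches, in capitals, all opposite to the gene.
Nr4a1 (GRCr8, chr7:134259888-134260137, plus strand): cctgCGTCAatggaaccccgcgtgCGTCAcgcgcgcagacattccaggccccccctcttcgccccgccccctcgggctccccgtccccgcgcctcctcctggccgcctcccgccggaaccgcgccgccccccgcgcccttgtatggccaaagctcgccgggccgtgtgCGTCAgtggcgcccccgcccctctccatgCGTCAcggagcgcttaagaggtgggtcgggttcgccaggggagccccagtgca
The matches began at -246, -226, -82 and -53.

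Cytokines, chemokines and their receptors had 37 of 78 genes measured, a relative median of 0.21 that stayed under the mark for a shift, 4 members at least 2-fold higher and 1 lower. Besides Cxcl2, Il6 and Ccl2, the fourth was Cxcl13, which attracts B cells, with 589, 646 and 1353. Several members fell short of 2-fold. The interferon-induced chemokine gene Cxcl10 had 320.1, 393 and 629, the interleukin-1 receptor partner Il1rap 949.9, 1076 and 1835.5 and Il6st, the shared chain of the interleukin-6 receptor family, 430.1, 592.5 and 765. Another 3 receptor genes of interleukin-1 ligands lay above the floor at 1.0 h but not at 0.0 h: Il1r1 with 156, 130.2 and 364, the decoy receptor Il1r2 with 247, 612 and 836 and Il1rl2 with 108, 132 and 497. Nfkbia, the inhibitor of NF-kappaB, was likewise below the floor at 0.0 h alone with 206, 409 and 619. Of the 78 cytokine, chemokine and receptor genes on the array, 5 were above the floor only at 1.0 h and 4 only at 0.0 h. Over all 4736 genes these counts were 268 and 175. Tnfsf13, the ligand APRIL, was the member 2-fold lower, with 3376, 2142 and 887 and a log2 difference of -0.66 on its other measured probe set. Cd40, a receptor of the tumour necrosis factor family that was on no list, had 486, 659.6 and 1367, 2.81-fold higher. Il1b and Tnf were not higher: Il1b had 687, 988 and 633, and Tnf was below the floor on all 3 arrays. Acute phase and complement genes had no member 2-fold apart among 15 measured, with the complement chains C1qb and C1qc 1.70-fold and 1.48-fold higher and A2m at 215409, 245246 and 250399.

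The respiratory chain did not move as one. Complexes II to IV had a relative median of 0.40, with 19 of 21 genes measured, 15 of them above the median of all genes, 2 of them 2-fold or more higher, with none as far below. Complex I (23 of 24 measured) had -0.12, or 0.14 with quantile normalisation, so its sign depended on the scaling, and 3 members at least 2-fold higher. ATP synthase had -0.12 over 11 genes, none 2-fold apart. In the chain from complex III onward, Uqcrc2, a core protein of complex III, had 5249.7, 7984 and 11096, 2.11-fold higher, Cyc1, which hands electrons to cytochrome c, 12997, 19639.5 and 18420.4, and Uqcrfs1, the iron-sulphur subunit, 16294, 28427 and 17787. Of cytochrome oxidase subunits, Cox4i1 had 44323, 62561 and 77734, Cox6a1 23129, 46261 and 37826 and Cox8a 64454.5, 84063 and 89799. The mitochondrially encoded COX1, COX2 and COX3 were 1.25-fold, 1.56-fold and 1.33-fold higher. Another measured probe set of COX1 went the other way, at a log2 difference of -0.54. Cox7b, the highest at 4.06-fold, was dim on the 0.0 h array with 371, 1255 and 1505.5. Cox5a and Cox6b1 ran the other way, 1.66-fold and 1.24-fold lower. So did Sdha, the only complex II gene measured, at 31692, 15018.5 and 27184.

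Within complex I the accessory subunit genes Ndufb6, Ndufb1 and Ndufb5 led with 4.32-fold, 2.48-fold and 2.23-fold, from 2134, 10959 and 9218 for Ndufb6, 582, 1667 and 1446 for Ndufb1 and 4167.5, 16042.5 and 9309 for Ndufb5. The other measured probe set of Ndufb6 had a log2 difference of 0.41. Subunits of the same arm went both ways, since Ndufb2 and Ndufb10 were 1.43-fold and 1.42-fold lower, and Ndufa8 was 1.88-fold lower at 6351.5, 8379 and 3379. The catalytic ATP synthase gene Atp5f1b had 64144, 52240.0 and 39641.5, 1.62-fold lower, against 38509.7, 33511 and 30877 for Atp5f1a. The complex I assembly factor gene Ndufaf3, on no list, was 2.29-fold lower, with its 3 measured probe sets at log2 differences of -1.19, -1.56 and -0.66.

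Enzymes that feed the chain held single low genes, while the family's median lay near level on the brightest probe sets. Among 20 measured genes of the citric acid cycle and mitochondrial metabolite enzymes, none was 2-fold higher and 3 were 2-fold lower, against 2.64% of all genes, while the relative median was -0.05. The 5 of these genes with a second-brightest probe set gave -0.88 on it. Suclg1, the alpha subunit of succinyl-CoA ligase, had 19409.7, 17905 and 6884, with the 0.0 h and 0.1 h arrays close and the 1.0 h array 2.82-fold below 0.0 h; its other probe set had a log2 difference of -0.31. Idh2, the mitochondrial NADP-dependent isocitrate dehydrogenase, had 18937, 19467 and 8790.4, 2.15-fold lower, and -0.41 on its other probe set. Sardh, which oxidises sarcosine, ended near the floor with 951, 869 and 270.3. Mdh1 and Got2, bright enzymes of the malate-aspartate shuttle, were near level at 68092, 95838 and 80131 and 44966, 48653 and 45899. Of 47 measured genes of mitochondrial import, carriers and dynamics 2 were 2-fold lower and none 2-fold higher, near the 2.64% and 2.31% of all genes. Mtch2, an outer membrane protein, had 39904, 27566 and 10451, but its other 2 probe sets had log2 differences of -0.40 and -0.12. Mrps14, of the mitochondrial ribosome, had 14275, 15342 and 6522.5. In glycolysis Pfkm, the muscle phosphofructokinase, was 2.02-fold lower at 5904, 3016 and 2919, and its log2 difference became 0.37 when all its probe sets were averaged. Pgk1 and Eno1 were near level at 87899, 77143 and 81942 and 103378, 108479.5 and 96142.

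Lipid genes held the lowest gene of the comparison. Elovl5, which lengthens polyunsaturated fatty acids, had 17907, 16107.5 and 3164, so the 0.0 h and 0.1 h arrays were close and the 1.0 h array was 5.66-fold below 0.0 h, from 1 probe set. Mboat7, which puts arachidonic acid onto phosphatidylinositol, had 5829, 3757 and 1749.9, 3.33-fold lower. The acyl-CoA synthetase genes Acsl1 and Acsl3 were 1.92-fold and 1.69-fold lower, and Acsl5 was 1.52-fold higher. Of 23 measured genes of fatty acid synthesis, elongation and lipid transport 2 were 2-fold lower and none higher, against 2.64% and 2.31% of all genes, with a relative median of 0.05. In the fatty acid oxidation and peroxisome family 2 of 32 were 2-fold lower and none higher. Abcd3, a transporter of the peroxisome membrane, had 42972, 19474 and 9707, 4.43-fold lower, and a far dimmer probe set had a log2 difference of -0.43. Pxmp2, a peroxisome membrane pore, had 1212, 1730.5 and 597. Acads and Acadm, dehydrogenases of fatty acid oxidation, went the other way with 394, 911 and 754 and 1191, 1711 and 1951.

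Cholesterol genes lay slightly high without reaching the mark, with a relative median of 0.20 over 14 measured genes and 10 of them above the median of all genes. Cyp51, the lanosterol demethylase, had 2078, 6628 and 4747.5, 2.28-fold higher, and log2 differences of 0.40 and 0.46 on its other measured probe sets. Insig1, Fdft1, Mvd and Lss were 1.32-fold, 1.25-fold, 1.25-fold and 1.21-fold higher. Acat1 and Idi1 were 1.56-fold and 1.38-fold lower. The family's relative median reached the mark at 0.29 when the floor was the 60th percentile, and on second-brightest probe sets it was -0.24. Phospholipid, inositol and sphingolipid enzymes had 2 of 33 at least 2-fold higher and 2 lower. Pi4ka, which makes phosphatidylinositol 4-phosphate, had 6204, 7003 and 15871 and log2 differences of 1.36, 0.82 and 0.17 on its 3 probe sets. Pla2g2a, a secreted phospholipase, was dim at 270.5, 489.8 and 571. Inpp4b, which removes a phosphate from inositol lipids, was 2.68-fold lower at 1439, 1038.5 and 538. Pafah1b1, the dynein regulator Lis1, had 34774, 33459.9 and 9445, and its other measured probe set a log2 difference of -0.48. In the prostaglandin and leukotriene family Ptgs2 and Ptgfr were 2-fold higher of 13 measured. Ptgfr, the prostaglandin F receptor, had 315, 766 and 690.3, and averaging its probe sets gave a log2 difference of -0.34.

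Protein turnover genes held 3 low ubiquitin ligase components. In the ubiquitin pathway 3 of 29 measured genes were 2-fold lower and none 2-fold higher, against 2.64% and 2.31% of all genes, with a relative median of -0.20. Nedd4, a ligase that acts on membrane proteins, had 4094, 4041 and 745, with the first 2 values nearly equal and the last 5.50-fold below 0.0 h. Cul2, the scaffold of the ligase that holds the von Hippel-Lindau protein, had 5479, 5005 and 1519, in the same pattern, 3.61-fold lower. Trim63, a RING-finger ligase best known in muscle, had 5042, 4077 and 1873. The bright members Nedd8 and Ube2b had 40095, 13638 and 38382 and 30925, 30617 and 20966.5. All 24 proteasome subunits on the array were measured, with a relative median of 0.12 and 1 at least 2-fold higher. Psmd4, a ubiquitin receptor of the regulatory particle, had 9205, 17598 and 19183, and its 3 probe sets log2 differences of 1.06, 1.00 and 0.62. Psmb1 and Psmb5, of the catalytic core, were 1.90-fold and 1.62-fold lower. Among 19 lysosomal genes 1 was 2-fold apart: Asah1, acid ceramidase, with 1317, 484 and 482. The bright lysosomal genes Psap, Lamp1 and Cd63 had log2 differences of -0.26, -0.19 and -0.02 on their brightest probe sets. On its second-brightest probe set Lamp1 had -1.50.

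Heat shock and folding chaperones had 2 of 46 measured genes at least 2-fold higher, none lower and a relative median of 0.11. Pdia4, a disulphide isomerase of the endoplasmic reticulum, had 1169, 1541 and 2631. Fkbp4, a partner of Hsp90, was 2.11-fold higher at 889, 1675 and 1872, and another probe set of it had a log2 difference of -0.07. Dnaja2 and Hsph1, of the Hsp70 system, were 1.96-fold and 1.87-fold higher on their brightest probe sets. The other measured probe sets of Dnaja2 were lower, at log2 differences of -0.73 and -0.17. Hspd1 and P4hb, a mitochondrial and a reticulum chaperone, had log2 differences of 0.05 and -0.03. Antioxidant and glutathione genes had 1 of 35 at least 2-fold higher and 2 lower. Gss, glutathione synthetase, had 1397, 2695 and 2961, and 0.27 on its other probe set. Txnrd1, thioredoxin reductase, had 26248, 24926 and 9148, but its other probe set was level at 0.07. Gclm, the modifier subunit of the first enzyme of glutathione synthesis, had 1941, 1753 and 958 with another probe set at 0.39. Sod1 was 1.47-fold higher at 30529, 65131 and 45017. Hmox1 was near level on its brightest probe set at 31631, 24984 and 28824, but had a log2 difference of 1.18 on its second-brightest. Cytochrome P450 and conjugation enzymes had 1 of 42 at least 2-fold higher, Cyp51, and 1 lower, Cyp7b1, which hydroxylates oxysterols and neurosteroids, with 4147, 4314 and 2014.

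Secretory pathway genes lay slightly low without reaching the mark. Golgi, coat and sorting proteins, with 42 of 44 genes measured, had a relative median of -0.18 and 15 of 42 above the median of all genes. Vesicle fusion and synaptic vesicle genes had -0.16 over 34 genes, 11 of them above it. Each family had 1 member at least 2-fold higher and none lower: the Golgi stacking gene Gorasp1 with 467, 646 and 1106 and Vamp5, a vesicle SNARE, with 269.9, 502 and 673. Both were dim at 0.0 h. The lowest Golgi and sorting members stayed under 2-fold: the retromer gene Vps29 was 1.75-fold lower at 8384.5, 4523 and 4795, the sorting nexin gene Snx4 1.69-fold at 35104.5, 22355 and 20713 and the adaptor gene Ap3m2 1.62-fold at 30146, 19987 and 18622. Another measured probe set of Ap3m2 had a log2 difference of 0.28. Of vesicle genes Sv2b, a synaptic vesicle glycoprotein, had 29205, 23209.5 and 14684.5, 1.99-fold lower, and Exoc2, of the exocyst, 15107, 9269.6 and 7849. Snap25, a SNARE of regulated secretion, was 1.55-fold lower. Vamp1, another SNARE, was above the floor at 0.0 h and 0.1 h only, with 709.6, 576 and 172. Among 42 small GTPases Arf2 alone was 2-fold apart, at 364, 1296 and 738. Of 8 vacuolar proton pump genes Atp6v1a was 2-fold apart on a probe set that its other 2 contradicted, with log2 differences of -2.25, 0.54 and 0.07. Atp6v0c, which forms the membrane ring of that pump, had 73869, 90409 and 39641, 1.86-fold lower.

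**Figure D3:**
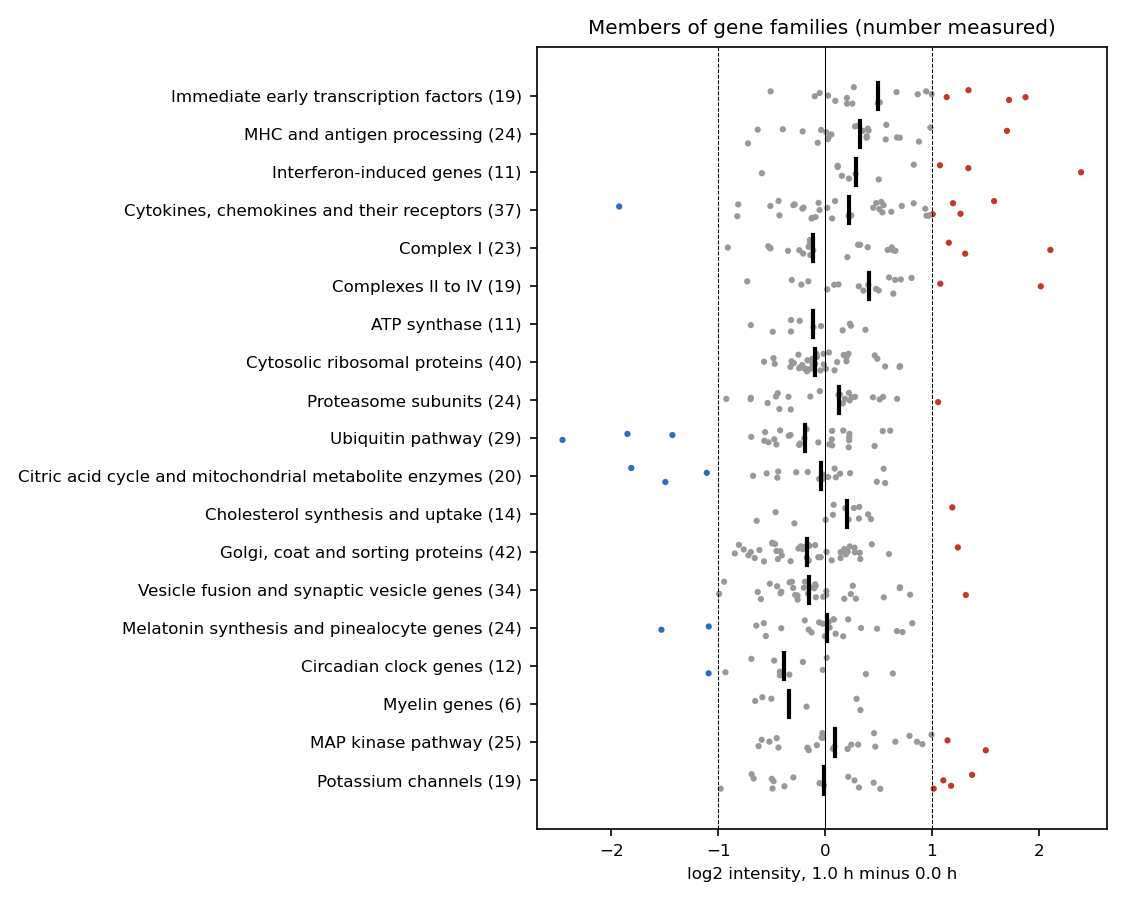
Each point is a measured member of 1 of 19 families, placed by its log2 difference between 1.0 h and 0.0 h, in red at least 2-fold higher and in blue at least 2-fold lower, with a black bar at the family's median and the number measured in brackets. The bars of immediate early genes, Complexes II to IV, antigen processing and interferon-induced genes lie right of 0 and those of clock and myelin genes left of it.

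Cyclic AMP signalling, through which noradrenaline acts on pinealocytes, had 46 of 77 genes measured, 3 at least 2-fold lower and none higher, against 2.64% and 2.31% of all genes, and a relative median of -0.06. Prkar2b, a regulatory subunit of protein kinase A, had 3251, 3074 and 1549, 2.10-fold lower. Akap8, which anchors that kinase in the nucleus, had 11837, 4633 and 5818, and Rgs14, which shortens G protein signals, 1077, 1304 and 476. Other members that act on the kinase stayed under 2-fold: Pkia, its inhibitor, was 1.68-fold lower at 15571.5, 13489 and 9259.8, and Akap11, an anchor protein, 1.93-fold higher at 2442, 9294 and 4707. The bright members Gnas, the stimulatory G protein subunit, and Prkacb, a catalytic subunit, were at 171588.5, 184748 and 210116 and 29898, 26934 and 28871, and Pde4b at 32600.0, 9256 and 29457. The receptor kinase genes Grk3 and Grk4 were above the floor at 0.0 h but not at 1.0 h, with 573, 240.2 and 135 and 548, 475 and 238. Of the 77 cyclic AMP signalling genes on the array, 5 were above the floor only at 0.0 h and 6 only at 1.0 h. Over all 4736 genes these counts were 175 and 268. Among adrenergic, monoamine, peptide and purine receptors 2 of 37 were 2-fold higher, Ptgfr and Adra2a. Adra2a, an inhibitory adrenergic receptor, was dim at 338.5, 516 and 725. Adora2b, an adenosine receptor, had 501, 958 and 945 and Adra1d, an adrenergic receptor, 370.2, 846 and 612.

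Kinase and phosphatase families mixed both directions. The MAP kinase pathway had 2 of 25 at least 2-fold higher and none lower, against 2.31% and 2.64% of all genes. Its relative median was 0.08, but 0.39 with probe sets averaged and 0.30 over the 5 genes with a second-brightest probe set. The 2 higher genes were both kinases of ERK, Map2k1 with 4319, 16921 and 12265 and Map2k2 with 4832, 13610.1 and 10704. Every measured probe set of both genes was higher, at log2 differences of 1.51 and 0.35 for Map2k1 and of 1.15, 1.92 and 0.42 for Map2k2. Shc3, an adaptor, lay just under 2-fold with 560.2, 847 and 1119. The ERK phosphatase genes Dusp7 and Dusp5 were 1.82-fold and 1.58-fold higher. Of 54 other serine and threonine kinases Nrbp1, a pseudokinase, was 3.36-fold higher with 402, 221 and 1352, and Camk2d, a calcium-dependent kinase, 2.11-fold lower with 22079, 16768 and 10463.5; another Camk2d probe set had 0.22. Of 50 phosphatase genes 2 were 2-fold lower, near the 2.64% of all genes, and none higher. Ppp1r1a, an inhibitor of protein phosphatase 1 that protein kinase A switches on, had 5340.2, 4318 and 2533, with -0.78 on its other probe set, and Ppp2r2b, a subunit of phosphatase 2A, 5685, 8052 and 2336. Among 20 tyrosine kinase genes and adaptors 2 were 2-fold higher, against 2.31% of all genes, both dim: Irs2, an adaptor of the insulin receptor, with 278, 564 and 718, and Syk, of immune receptors, with 268, 737 and 576. A further 9 of the 44 members on the array were above the floor only at 1.0 h and none only at 0.0 h. Over all 4736 genes these counts were 268 and 175. The family's relative median was 0.13, but 0.34 with probe sets averaged and 0.32 when the floor was the 20th percentile. Igf1r, the receptor for insulin-like growth factor, was 1.74-fold higher at 2277, 3505 and 3950.5. Of 24 growth factors Fst, which binds activin, had 1243, 1092 and 2585.5, and its other probe set -0.15, and Fgf1 was 2.63-fold lower at 1086, 817 and 413.5. Ntf4, a neurotrophin, was dim at 306.5, 242 and 628, and averaging its probe sets gave -0.74.

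Channels and transporters were led by dim potassium channel genes. Of 19 measured potassium channel genes 4 were at least 2-fold higher, against 2.31% of all genes, and none lower, while the relative median was -0.02. Kcnj8, a subunit of ATP-sensitive channels, had 326, 676 and 847.5, Kcnn1, a calcium-activated channel, 455.5, 515 and 1033, Kcnk5, a leak channel, 294, 77.4 and 634, and Kcnj1, an inward rectifier, 289, 586 and 584. All 4 were dim at 0.0 h. A further 7 of the family's 54 genes on the array were above the floor only at 0.0 h and 3 only at 1.0 h. Over all 4736 genes these counts were 175 and 268. Genes of the family thus also crossed the floor the other way, as Kcna1 did with 509, 407 and 81.6. Kcnj14 was the lowest measured member at 2829, 2747 and 1437. None of 25 sodium, calcium and chloride channel genes and none of 11 ion pump genes was 2-fold apart. Orai1, the pore of store-operated calcium entry, on no list, had 350.5, 1216.5 and 944, 2.69-fold higher. Among 80 solute carriers 2 were 2-fold higher and 2 lower. Slc27a1, a fatty acid transporter, had 2010.2, 4906 and 4206, and Slc37a1, a sugar phosphate exchanger, 433, 242 and 869. Slc6a11, a GABA transporter, had 706, 315 and 347.5, and Slc6a3, the dopamine transporter, 654.5, 453 and 327. The connexin gene Gja4, of arterial endothelium, was 2.64-fold lower at 783, 803 and 297.

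Pineal genes lay near level as a family on their brightest probe sets. Of 30 melatonin synthesis and pinealocyte genes 24 were measured, with a relative median of 0.01 and 2 at least 2-fold lower, against 2.64% of all genes. The 6 with a second-brightest probe set gave -0.53 on it. Maob, a monoamine oxidase that breaks down amines, had 6647, 5172 and 2298, 2.89-fold lower, from 1 probe set. Pdc, phosducin, which binds G protein beta and gamma subunits in photoreceptors and pinealocytes, had 19484, 23109.8 and 9159.8, 2.13-fold lower. Ddc, which makes serotonin from its precursor, was 1.49-fold lower at 19646, 20203 and 13205. Id1, an inhibitor of bHLH factors, and Neurod1, a bHLH factor of pinealocytes, were 1.76-fold and 1.40-fold higher at 6568, 8196 and 11571 and 9571.5, 12661 and 13421. Tph1, the first enzyme of the pathway, differed by 0.03 on the log2 scale. Among 47 homeobox, bHLH and other developmental factors 1 was 2-fold apart: Nfix, with 2385, 2941 and 765 and -0.64 on its other measured probe set.

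The circadian clock family had the lowest relative median of the 72, -0.39, with 12 of 13 genes measured and 3 of 12 above the median of all genes. Bhlhe40 and Bhlhe41, which repress clock genes, were 1.91-fold and 1.61-fold lower with 3306, 2229 and 1732 and 23777.5, 23969 and 14743. Nr1d2, a repressor of the same loop, had 7550.3, 6573 and 5427, and Cipc, an inhibitor of CLOCK, 7677, 2329.5 and 5726.5. Per2, a core negative regulator, was 1.34-fold lower at 500.5, 478 and 373. Bmal1, the activator at the core of the clock, had 2716, 1356 and 1275, 2.13-fold lower, and a log2 difference of 0.66 on its other, dimmer probe set. Nr1d1 and Hlf ran against the family, 1.30-fold and 1.55-fold higher. Dbp, an output gene, was level at 22784, 23621 and 22456.

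Markers of other cells were counted on both arrays. Chromaffin and catecholamine genes had 13 of 22 measured, and the defining enzymes Th and Dbh lay below the floor on all 3 arrays, while secretory granule genes such as Chgb were bright at 64528, 61139 and 48319.6. Vgf, a granule peptide precursor of that family, was above the floor at 0.0 h and 0.1 h only, with 1032, 1406 and 162. Of 11 adrenal cortex genes 4 were measured, and Star, Cyp11a1 and Cyp17a1 were below the floor on all 3 arrays. Myelin genes, with 6 of 11 measured, had a relative median of -0.35, which became -0.16 with probe sets averaged and, when the floor moved to the 20th or the 60th percentile, -0.15 or -0.08. Its members ran from Prx and Pmp22 at 1.57-fold and 1.42-fold lower and Mal at 442, 382 and 294 to Mag and Cnp at 1.26-fold and 1.23-fold higher. The major myelin genes Mbp and Mog were below the floor on all 3 arrays.

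Leukocyte markers, which bear on the antigen and interferon families, had 14 of 31 genes measured, a relative median of 0.14, 1 member at least 2-fold higher and 2 lower. Summed over all 31 genes their intensity was 38191 at 0.0 h and 28069 at 1.0 h, but without Spp1, the brightest, the other 30 summed to 19934 and 21498. Coro1a, an actin-binding protein of leukocytes, had 451, 919 and 1849.7, 4.10-fold higher. Ptprc, the common leukocyte antigen CD45, was dim at 286, 723 and 503, and Cyba, of the oxidase of phagocytes, had 1836, 2198 and 3359. Spp1, osteopontin, was 2.78-fold lower at 18256.5, 23214 and 6570.5, and the mast cell receptor gene Fcer1a 2.42-fold lower at 1271, 699.9 and 526. The T cell markers Cd3d, Cd3g and Cd8a and the myeloid markers Itgam and Csf1r were below the floor on all 3 arrays. Aif1, of microglia and macrophages, was below it at 0.0 h alone with 184, 428 and 471. The part of these cells in the antigen and interferon values was not tested. Endothelial markers had 9 of 14 measured, none 2-fold apart, and a summed intensity of 11585 and 11564, level between the arrays. Fibroblast and smooth muscle, astrocyte and erythroid markers had none 2-fold apart among 10, 9 and 6 measured. Neuron markers had 1 of 11, Nefh, a neurofilament gene, at 472, 887 and 1019, and 0.39 on the log2 scale with probe sets averaged. As a family they had a relative median of -0.10, with 5 of 11 above the median of all genes. Summed over all 17 genes their intensity was 102359 at 0.0 h and 76405 at 1.0 h. Such a sum is set mainly by its brightest members, and 6 of the 17 genes lay below the floor on both arrays. In the matrix family of 56 genes Col1a1, type I collagen, had 3321.5, 4849 and 7152 on its brightest probe set, past 2-fold, and its other 3 had -0.32, 0.73 and 0.19. Tnc, tenascin, was 2-fold higher and dim, and Eln, elastin, 2.18-fold lower at 1015, 826 and 466.

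Several large families held nothing 2-fold apart. These were 40 measured cytosolic ribosomal protein genes, with a relative median of -0.10, 28 translation factors and aminoacyl-tRNA synthetases at 0.00, 25 sodium, calcium and chloride channels, 21 calcium-binding proteins and 20 apoptosis genes at 0.09. Of 72 families 20 had no such member. The ribosomal genes Rpl3, Rpl23 and Rps3, among the brightest on the arrays, had log2 differences of -0.12, -0.12 and 0.20. Gene expression machinery held single genes only. In splicing and RNA processing Prpf3, a protein of the tri-snRNP, was 2-fold higher of 41 measured, with 295, 385 and 678. In chromatin and general transcription Kat5, a histone acetyltransferase, was higher at 580.4, 1039 and 1301, and Hmgb1, a DNA-bending protein, and Polr3k, a subunit of RNA polymerase III, lower at 4884, 2488 and 2417 and 4709, 4401 and 2296. Of 45 cell cycle, replication and repair genes Fen1, which trims flaps during replication and repair, was 2.94-fold higher at 1800.4, 3216 and 5294, and Polg2, of the mitochondrial DNA polymerase, 2.19-fold lower at 1195, 1317 and 546.

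The level of a gene differed between the ends of the ranking. The 20 highest genes bright enough to be named had a median intensity of 469 at 0.0 h and 1497 at 1.0 h, and the 20 lowest 6974 and 2443, beside medians of 1994 and 2018 for all measured genes. Part of this contrast is set by the choice of genes, which were ranked on the same arrays. At 0.0 h a named lower gene had to pass 730.6, and a named higher gene only 262.3. By probe set, 4.21% of the dimmest of 3 equal groups were at least 2-fold higher and 2.76% lower, against 1.88% and 2.58% of the brightest group. The highest genes on no list, after Prr13 and Glod4, included Nudt4, which hydrolyses diphosphoinositol phosphates, with 438, 684.5 and 1186, Pacsin2, which bends membranes in endocytosis, with 404, 441.5 and 1095, and Medag with 617, 868 and 1653. Pacsin2 had similar 0.0 h and 0.1 h values and stood out on the 1.0 h array. The lowest on no list were Tmem64 with 3623, 2493 and 816, Tc2n with 2550.1, 1614 and 811, Pggt1b, a prenyltransferase subunit, with 1993, 1386 and 649.7, Matr3, a protein of the nuclear matrix, with 21974, 19729 and 7596, Alg10, of N-glycan synthesis, with 7299.9, 6775 and 2587 and Mfsd6 with 8618, 6988 and 3070.4. Matr3 and Alg10 had close 0.0 h and 0.1 h values and a lower 1.0 h value.

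**Figure D4:**
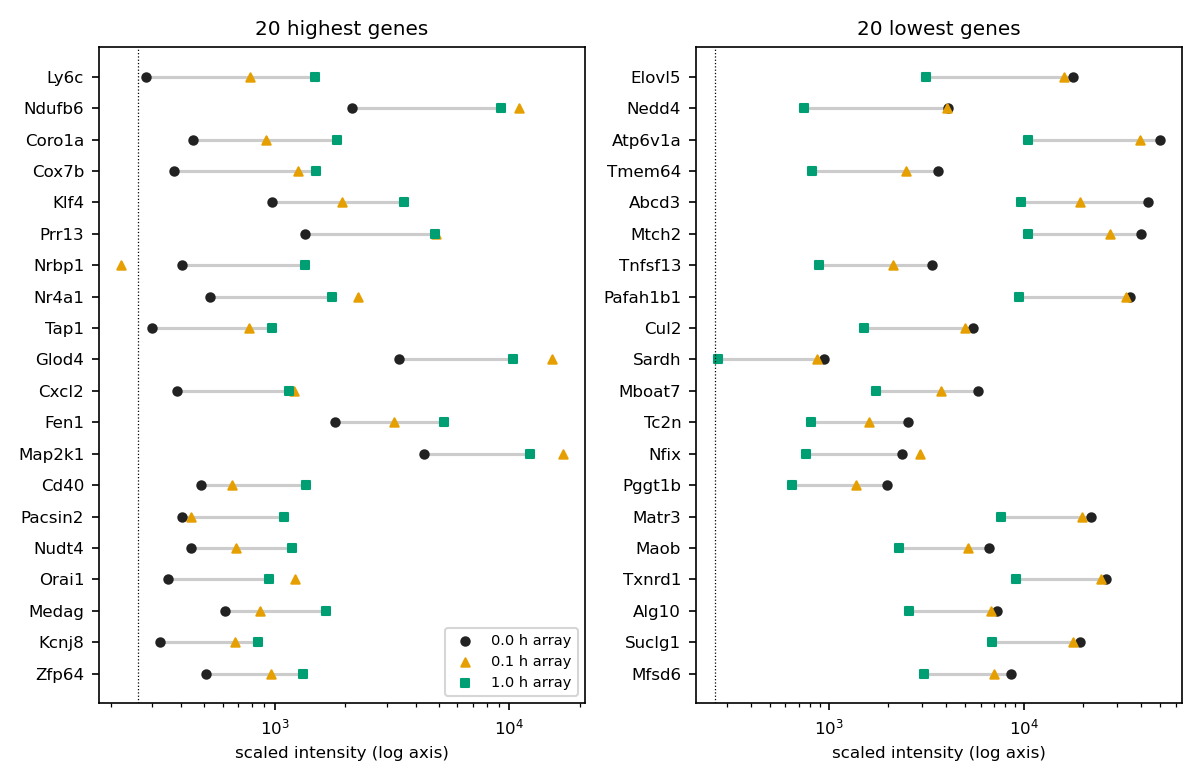
Scaled intensity on a log axis of the 20 highest and 20 lowest genes on the 0.0 h (circle), 0.1 h (triangle) and 1.0 h (square) arrays, 1 array each, with the floor of 262.3 dotted. The 20 highest genes start from a median of 469 at 0.0 h and the 20 lowest from 6974, a contrast partly set by ranking them on these arrays.

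How far 2 probe sets of a gene differ on the same arrays gives a gauge of these values, although probe sets are not replicates of a condition. Of 725 genes with 2 or more measured probe sets, 395 (54.5%) had them all on 1 side of 0. Over 587 genes with exactly 2, the SD of their difference, taken from the median absolute deviation, was 0.50. Such an SD gives little weight to the genes whose probe sets lay farthest apart. Of the 150 genes at least 2-fold apart, 110 rested on 1 measured probe set. Among the other 40, 27 had all on 1 side, 15 of 20 higher genes and 12 of 20 lower ones. In 5 genes every measured probe set was past 2-fold: Ccl2, Irf7, Klf4 and Tap1, all higher, and Hook1, an adaptor of microtubule transport, lower with 27538, 21309 and 11703 and log2 differences of -1.23 and -1.14. The paired probe sets of these 5 were designed from the same sequence entry, so they are no independent reading. Among genes whose probe sets lay on both sides of 0 were Atp6v1a, Bmal1, Camk2d, Col1a1, Egr1, Fkbp4, Fst, Gclm and Txnrd1.

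**Figure D5:**
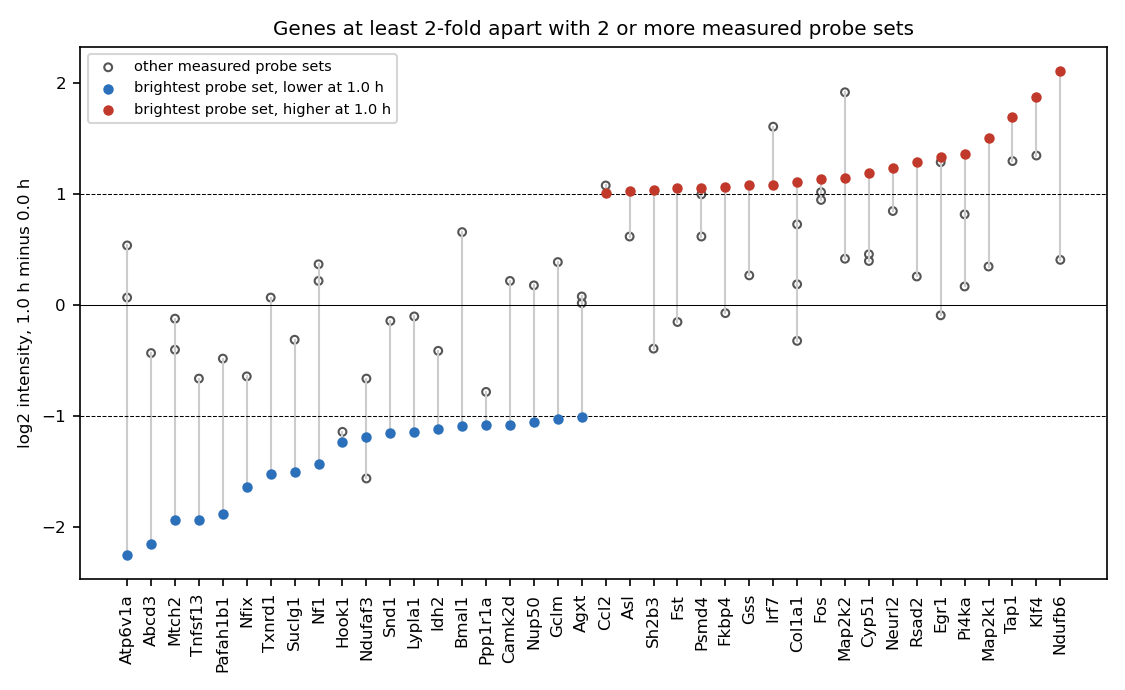
Log2 difference between 1.0 h and 0.0 h for the 40 genes at least 2-fold apart with 2 or more measured probe sets; filled points are the brightest probe set and open points the others, with a grey line over their range and dashed lines at 2-fold. In 27 genes all points lie on 1 side of 0.

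Genes that lay above the floor on 1 array only have no fold change here. There were 175 such genes at 0.0 h and 268 at 1.0 h, and 15 and 31 of them were at least 2-fold over the floor. The brightest at 1.0 h were Scfd2, of vesicle transport, with 180.0, 946.5 and 1368, the receptor phosphatase gene Ptprj with 209, 630.0 and 1134, the amino acid transaminase gene Bcat2 with 148, 433 and 953 and Vdr, the vitamin D receptor, with 143, 1337 and 890.2. In all 4 the 0.1 h value was above the floor as well. The brightest at 0.0 h were Vgf, Anapc15 with 1017, 1199 and 252, Fam83f with 976, 553 and 130.0 and Mt3, a metallothionein, with 885, 606 and 239. At the floor itself, Apob with 263, 369.5 and 487 was the last gene taken in and Chrnb3 with 341, 72.1 and 262 the first left out. At the 2-fold mark Tnc was the last higher gene counted, with 495, 495 and 993.5, and Klf6 the first not counted; for lower genes these were Slc6a3 and Akr1d1, with 563, 189 and 282.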

How the data were processed

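Affymetrix arrays, 1 for each of 3 samples, measured rat total RNA. Each probe set has 1 deposited intensity on a linear scale. For the summary method the software is not given in the sources in hand; the arrays' means without the highest and lowest 2% of values were 2503.7, 2503.9 and 2503.7, so a common scale was set before deposit. Of 8799 probe sets, 59 controls were left out, and the platform annotation gave 7006 of the other 8740 a single symbol, 308 several and 1426 none.

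Log2 intensities were shifted by 0.008, 0.042 and -0.050 (0.0 h, 0.1 h, 1.0 h) to equal medians, taken where a probe set passed the floor on every array. The floor, the 40th percentile of pooled values, was an intensity of 262.3, and 5146, 5294 and 5321 probe sets lay above it. A gene was read from the probe set brightest on average over the arrays. The number of arrays limits the precision; with 1 array a label there are no p-values. Python 3.11.15 with pandas 2.3.3 was used, and limma 3.58.1 in R 4.3.3 for loess. The steps were tested on simulated data with less spread than these arrays, which checks the code and not how reliable a 2-fold difference is.

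Named genes were the 20 highest and 20 lowest measured genes above the 60th percentile on the brighter array, family members at least 2-fold apart, the 2 brightest members of families with fewer than 2 of those, and other measured probe sets of a named gene. Other members are named to show a family's range. Members, families and this rule were chosen with earlier results of these data known, and 5 genes were taken out of families whose function they do not share after values were seen. Promoter windows are from RefSeq's GRCr8 table, which held 2509 of 3030 measured genes. Alternatives were no further scaling, quantile, cyclic loess and spike-in scaling, a floor at the 20th or at the 60th percentile, all probe sets of a gene averaged, and its second-brightest probe set.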

Additional observations from a re-analysis of the deposited data

How the results depend on the processing

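The 137 higher and 123 lower probe sets became 262 and 63 under spike-in scaling, 402 and 322 when the 20th percentile was the floor, and 58 and 70 when the 60th was; as deposited they were 164 and 101, with quantile normalisation 125 and 130 and with cyclic loess 124 and 132. A lower floor takes in more and dimmer probe sets. The 27 genes whose probe sets all lay on 1 side became 50 of 79 and 17 of 23 with these floors. Clock genes and Complexes II to IV kept their shift under every alternative that could be computed for them. The relative median of the antigen processing family was 0.12 with probe sets averaged, that of the interferon family 0.21 with quantile, 0.21 with loess and 0.20 with probe sets averaged, and that of immediate early genes 0.02 on second-brightest probe sets. Myelin genes had -0.15 and -0.08 with these floors and -0.16 with probe sets averaged. These 4 families lost their shift under at least 1 alternative, and 16 others reached the mark under at least 1. With probe sets averaged these were the MAP kinase pathway (0.39), tyrosine kinases (0.34), P450 enzymes (0.26), amino acid receptors (0.25), the vacuolar pump (-0.25) and chromaffin genes (-0.27). On second-brightest probe sets, over 5 to 10 genes each, they were the citric acid cycle (-0.88), melatonin genes (-0.53), small GTPases (-0.43), the MAP kinase pathway (0.30) and splicing (-0.26). With the floor at the 60th percentile they were neuron markers (-0.34), cholesterol genes (0.29), ion pumps (-0.28) and P450 enzymes (0.27), and at the 20th nicotinic receptors (-0.38) and tyrosine kinases (0.32). Nicotinic receptors had -0.39 as deposited, and peptide hormones and skeletal muscle markers -0.26 each with quantile normalisation. On second-brightest probe sets the log2 difference changed sign for Agxt (0.02), Atp6v1a (0.54), Bmal1 (0.66), Camk2d (0.22), Nf1 (0.37), Nup50 (0.18), Sh2b3 (-0.39) and Txnrd1 (0.07), 8 of the 24 genes that could be read this way; 12 more fell under 2-fold. With probe sets averaged it did so for Ntf4 (-0.74), Pfkm (0.37), Ptgfr (-0.34), Tnc (-0.24) and Zfp706 (-0.27), and 39 of 150 fell under 2-fold. Spike-in scaling brought 40 of 150 under 2-fold. For the other changes the cause was not tested. Second-brightest probe sets gave no value for the clock, interferon and myelin families, which had too few such genes. No paired analysis was possible because each label had 1 array, and leaving out an array leaves no comparison. Signal near the floor limits the dim genes, among them most of the highest.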

Other observations

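Of the 150 genes at least 2-fold apart, 96 were in a gene family and 54 in none. Lower genes outside the families included Gamt and Hibadh. Gamt, which makes creatine, had 2078, 1445 and 853 in the order 0.0 h, 0.1 h, 1.0 h, a 2.44-fold lower value at the end, and a log2 difference of -0.49 with probe sets averaged. Hibadh, an enzyme of valine breakdown, had 20532, 20088 and 8822. Of the family of amino acid, nucleotide and one-carbon enzymes, 1 of 34 measured genes was 2-fold higher and none lower. Chmp1a, of the ESCRT machinery, was 2.71-fold lower at 19433, 19919 and 7181, and Hps3, needed for lysosome-related organelles, 2.54-fold at 6296, 3609 and 2475. Rfx5, which binds the promoters of MHC class II genes, was 2.24-fold lower at 6160.1, 5227 and 2748, while the measured class II genes lay on both sides of level. Nf1, which switches Ras off, had 3400.3, 4143 and 1262, 2.69-fold lower, and its other 2 measured probe sets had log2 differences of 0.37 and 0.22. Among the higher genes Hax1, a mitochondrial survival protein, had 390.0, 443.5 and 822, and Pop1, of the RNA-processing ribonucleases P and MRP, 387, 1219 and 935. These genes were singled out after their values were seen.

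Probe sets whose names begin with the same EST accession digits did not all have the same balance. Those beginning with rc_AA800 had a median log2 difference of 0.21 over 149 measured probe sets, with 8 at least 2-fold higher and 2 lower, and those beginning with rc_AA799 had 0.16 over 191. Those beginning with rc_AI639 had -0.12 over 216, with 3 higher and 10 lower, and of 116 beginning with rc_AA875 none was higher and 7 were lower. These blocks were picked after the values were seen, from 8 with at least 100 measured probe sets, and the cause was not tested.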
